A study of Mus musculus with 18 samples.

Results

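The clustered protocadherin locus of the mouse lies on chromosome 18 and was taken here as the interval from 37050000 to 38010000 of build mm9, with the alpha subcluster from 37050000 to 37360000, the beta subcluster from 37400000 to 37750000 and the gamma subcluster from 37800000 to 38010000. Its members are the CpGs in that interval that had at least 5 reads in at least 1 oocyte. They number 591 of the 655489 such CpGs in the series, 176 in alpha, 109 in beta, 294 in gamma and the other 12 between subclusters. A further 562 CpGs of the interval were read, but never 5 times in any oocyte.

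Clustered protocadherins are adhesion proteins on the surface of neurons. Each gene of the alpha and gamma subclusters has its own promoter and variable exon, which is spliced to exons shared by the whole subcluster, while beta genes carry no shared exons. A neuron expresses its own combination of these genes, and methylation of the variable promoters is known to accompany silence of a promoter. Oocytes build up their DNA methylation after birth, as they grow. RefSeq (GRCm38, used for names only) lists 58 genes of the family on this chromosome, namely 14 alpha, 22 beta and 22 gamma genes. No annotation of mm9 was used, so sites are given by subcluster and mm9 position, and the gene, exon or promoter at each was not analysed here. Sequences are not printed for this locus.

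Methylation was measured in single oocytes by reduced representation bisulfite sequencing, which reads fragments cut by MspI at CCGG and so favours CpG-rich sequence. The 18 libraries comprise 7 wild-type (SF WT) and 5 Sall4 knockout (SF KO) oocytes of secondary follicles, and 4 wild-type (EAF WT) and 2 knockout (EAF KO) oocytes of early antral follicles. Sall4 encodes a zinc finger transcription factor. The labels name Sall4fl/fl;Zp3-Cre and Sall4fl/fl females as the donors, so the deletion relied on Zp3-Cre, expressed once oocytes begin to grow, and loss of Sall4 was not checked here. Ages P12.5 and P17.5 are listed for all samples without being tied to a stage. The labels do not tie oocytes to animals. Each group was therefore treated as a single sample, no test was made, and an SD or range is that of the oocytes and not of mice.

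Coverage of the locus was thin and differed between oocytes. Read counts summed over CpGs ran from 464271 to 6514029 per library, and the 5 SF KO libraries were all deeper than the SF WT libraries. From 0 CpGs (SF WT replicate 3) to 165 CpGs (SF KO replicate 2) of the locus reached 5 reads, with a median of 12 reads per value. Of the 591 CpGs, 287 (48.6%) were read in a single oocyte, against 39.5% of all CpGs of the series, and none was read in more than 8. Over all CpGs, SF KO replicate 1 stood apart from its group at 22.6% methylation, the other SF KO oocytes lying at 9.41% to 11.04%. Differences between group means under the main settings, and counts of changed or discordant CpGs, are given without it too where it moves them by over 1.5 times.

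Methylation within the locus lay mostly in parts of alpha and beta, and gamma was almost free of it. Among the 619 CpG values of gamma (1 value is 1 CpG in 1 oocyte), 98.2% were exactly 0% and 6 were at 80% or above. Among 399 alpha values 74.9% were 0% and 80 were at 80% or above, and among 199 beta values 82.4% were 0% and 32 were at 80% or above. In the rest of the genome 73.0% of values were 0%, and by group 6.04% (EAF KO) to 16.2% (EAF WT) were at 80% or above. The share at 80% or above was 20.1% in alpha, 16.1% in beta and 0.969% in gamma. The map of runs shows the same division, with dark points in alpha and beta and pale points in gamma. By group the beta share was 2.13% in SF WT, 26.4% in SF KO, 3.125% in EAF WT and 14.3% in EAF KO. In the rest of the genome these shares were 11.3%, 8.11%, 16.2% and 6.04%, in the same order. SF KO replicate 1 alone had 59.0% of its 39 beta CpGs at 80% or above.

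**Figure D1:**
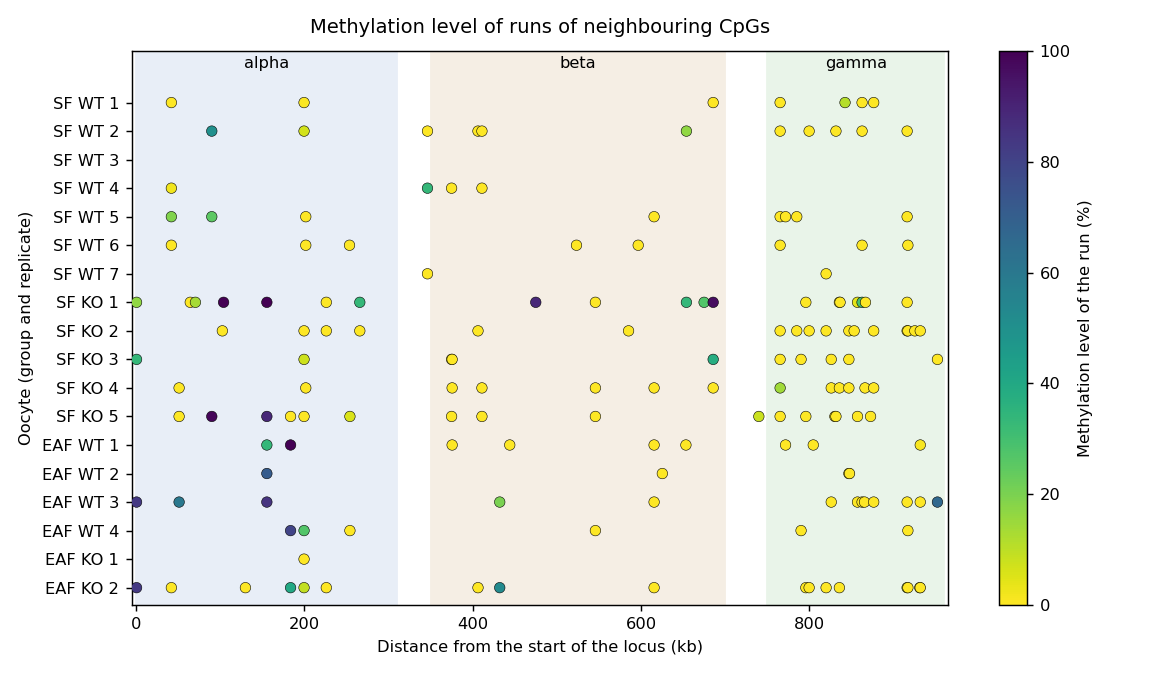
Methylation level (colour, in %) of each run of neighbouring CpGs, placed by its distance in kb from the start of the locus (x axis) in each oocyte (rows). A run has at least 3 CpGs with neighbours at most 200 bp apart, and a point needs at least 2 CpGs with 5 reads; all 11 run values at 80% or above lie in alpha or beta, and SF WT replicate 3 has no point.

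The gamma subcluster was close to 0% in every group. The 5 SF KO oocytes stood at 4.18%, 0%, 0%, 1.56% and 0%, in replicate order, over 35 to 96 CpGs each. Of the SF WT oocytes with at least 10 CpGs there, replicate 1 was at 1.92% and replicates 2, 5 and 6 were at 0%. EAF WT replicates 1 to 3 were at 0.417%, 0% and 2.99%, and EAF KO replicate 2, the single knockout oocyte of that stage with gamma CpGs, was at 1.64% over 61 CpGs. Groups overlapped, and the differences between group means were all below 1 point. SF knockout minus wild type was 0.667, and -0.0901 without SF KO replicate 1. EAF KO minus SF KO was 0.492, and 1.25 without SF KO replicate 1. Of 30 gamma runs, 28 never exceeded 20% in any oocyte. A run read in 8 oocytes, chr18:37815187-37815322, was at 0% in 7 of them and at 14.3% in SF KO replicate 4.

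The exceptions in gamma were isolated. Those 2 runs above 20%, chr18:37912540-37912828 and chr18:38002086-38002520, were each above it in 1 oocyte. SF KO replicate 1 stood at 29.3% in the run chr18:37912540-37912828, on 67 methylated of 231 reads, while SF WT replicates 2 and 6 were at 0% on the CpGs they shared with it. SF WT replicate 1 and EAF WT replicate 3 were also at 0% in the run, at other CpGs. EAF WT replicate 3 stood at 66.7% on 3 CpGs with 15 reads in all in the run chr18:38002086-38002520, where SF KO replicate 3 was at 0% on 13 CpGs. The 21 CpGs of gamma with 20 or more CpGs within 100 bp, the most CpG-dense sequence of the locus, gave 63 values, all 0%.

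Outside the locus, mean methylation was 18.98% at CpGs with 1 to 9 CpGs read in any library within 100 bp (CpG-poor), 14.2% at those with 10 to 19 and 0.898% at those with 20 or more, so the subclusters were also compared within the CpG-poor class. In the 12 oocytes with at least 10 such CpGs in gamma, the gamma level ran from 0% to 9.09%, while the rest of the genome in all 18 oocytes ran from 8.71% to 32.2%. Alpha CpGs of this class ran from 0% to 79.1% in 10 oocytes, and beta CpGs from 0% to 57.0% in 10 oocytes. In EAF WT replicate 3, for example, alpha stood at 79.1%, gamma at 9.09% and the rest of the genome at 28.7%. In SF KO replicate 5 alpha stood at 41.04%, beta and gamma at 0% and the rest of the genome at 10.9%. These are values side by side, with no test, and the CpGs of a subcluster share a few fragments.

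**Figure D2:**
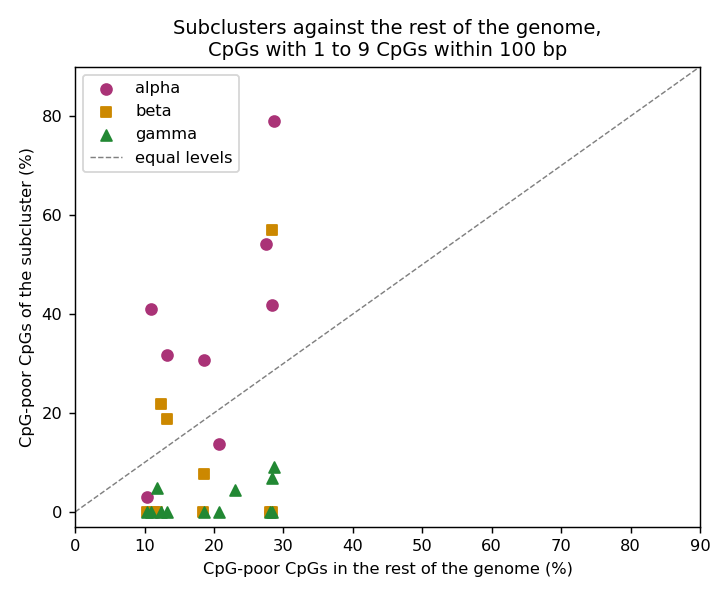
Methylation of CpG-poor CpGs (1 to 9 CpGs within 100 bp) in each subcluster (y axis, %) against the same class in the rest of the genome (x axis, %). Each point is 1 oocyte with at least 10 such CpGs in the subcluster, and every gamma point lies below the line of equal levels, none higher than 9.09%.

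The alpha subcluster held the highest levels, in EAF WT oocytes. Its level was 45.5%, 71.3%, 78.3% and 30.3% in EAF WT replicates 1 to 4, on 11, 10, 20 and 24 CpGs. The EAF KO oocytes stood at 0% on 19 CpGs and 22.9% on 35 CpGs. SF WT replicates 1, 2, 5 and 6 were at 0.233%, 22.6%, 14.4% and 0%, and the SF KO oocytes at 43.6%, 1.22%, 16.1%, 0% and 33.1%. All 4 EAF WT oocytes were above both EAF KO and all 4 SF WT oocytes with enough CpGs, and they overlapped with SF KO. The same order held over all CpGs of the series, so it is not particular to alpha. There EAF WT lay at 19.8% to 23.5%, EAF KO at 9.10% and 11.03%, and those 4 SF WT oocytes at 13.9% to 18.6%.

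Group means in alpha were 56.3% ± 22.4 (SD, n = 4 oocytes) in EAF WT, 11.4% ± 16.2 (SD, n = 2) in EAF KO, 9.31% ± 11.1 (SD, n = 4) in SF WT and 18.8% ± 19.3 (SD, n = 5) in SF KO. The EAF knockout minus wild-type difference was -44.9 points, and the wild-type EAF minus SF difference was 47.01 points. The SF knockout minus wild-type difference was 9.52 points, 3.31 without SF KO replicate 1 and 14.2 without SF KO replicate 4, with overlapping oocytes. For knockout oocytes the EAF minus SF difference was -7.39 points. It shrank to -1.19 points once SF KO replicate 1 was left out, and turned to 4.03 points once EAF KO replicate 1 was.

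**Figure D3:**
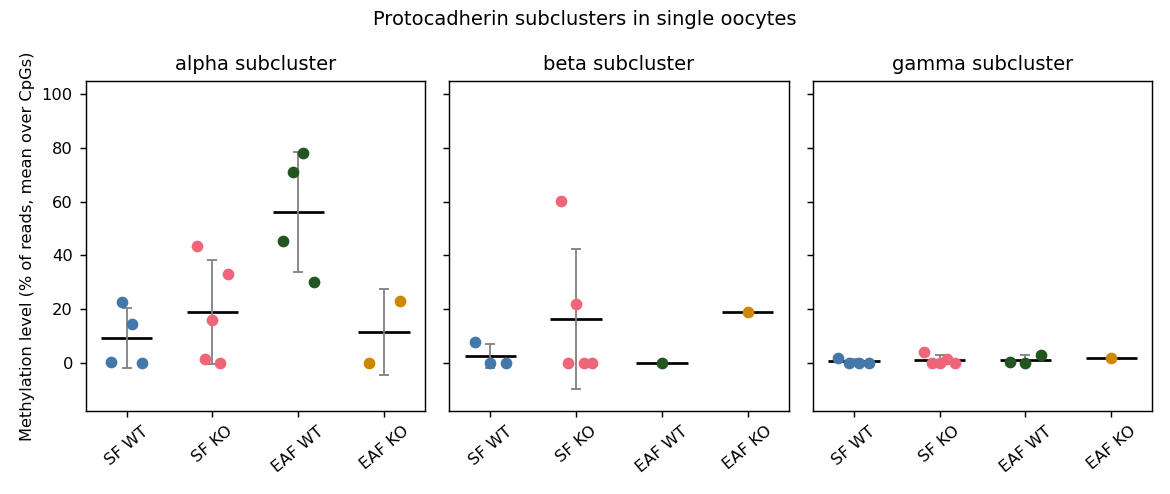
Methylation level of each subcluster in each oocyte with at least 10 CpGs there (points, %), with the group mean (black line) and SD over oocytes (grey bar, where a group has more than 1 oocyte). In alpha the 4 EAF WT oocytes lie at 30.3% to 78.3%, above the 0% to 22.9% of EAF KO, and in gamma no oocyte is above 4.18%. Over all CpGs of the series EAF WT, at 19.8% to 23.5%, also lies above EAF KO, at 9.10% and 11.03%.

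These alpha levels rest on different CpGs in different oocytes. The 10 alpha CpGs of EAF WT replicate 2 all belong to a single run, chr18:37205410-37205718, and the 19 of EAF KO replicate 1 to another, chr18:37249603-37250191, which was low in most oocytes. Where alpha CpGs were read in at least 1 oocyte of both groups, the EAF difference was smaller. At 20 such CpGs the means were 35.0% in EAF KO and 48.9% in EAF WT, a difference of -13.9 points with a median of 0. Of these, 5 were lower in the knockout by at least 25 points, beside 16.0% of all CpGs, 1 was higher, beside 4.88%, and 9 were at 0% in both. At the 12 CpGs shared by EAF WT and SF WT the stage difference was 22.6 points, and at the 31 shared by EAF KO and SF KO it was 16.1 points. Each had a median difference of 0. Those 12 CpGs all lie in the run chr18:37249603-37250191, and in EAF WT replicate 4 alone read them. Of the 12, 7 were at 0% in both groups.

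Runs of neighbouring CpGs bring oocytes closer to the same place, although not always to the same CpGs. The locus had 66 runs, 17 in alpha, 17 in beta, 30 in gamma and 2 between, with a median length of 131 bp. In 39 of them at least 2 oocytes were read, and in 9 of these 39 some pair of oocytes had no CpG in common (28 of 216 pairs over the 39 runs). Of all runs, 0 were covered in at least 2 oocytes of each of the 4 groups. Of those 39 runs, 26 were at 20% or below in every oocyte read and 0 were at 80% or above in every one. Another 3 held both an oocyte at 20% or below and an oocyte at 80% or above, and the other 10 held an intermediate level. The planned rule for naming runs therefore named none. The runs described here were chosen after their values were seen, as those above 20% in some oocyte or read in the most oocytes.

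The alpha run chr18:37205410-37205718, with 16 CpGs, was above 20% in every oocyte that read it. SF KO replicates 1 and 5 stood at 100% and 88.9%, on 170 and 130 reads summed over CpGs. EAF WT replicates 1, 2 and 3 stood at 33.3%, 71.3% and 85.1%, on 198, 445 and 284 such reads. It was not read in SF WT or EAF KO. SF KO replicate 1 was read at other CpGs of the run than the remaining 4 oocytes.

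The alpha run chr18:37233591-37233713 was read in EAF oocytes of both genotypes and in 1 SF KO oocyte, but in no SF WT oocyte. EAF WT replicate 1 stood at 100% on 2 CpGs with 10 reads, and EAF WT replicate 4 at 80% on 5 CpGs with 25 reads. EAF KO replicate 2 stood at 40% on 49 reads and SF KO replicate 5 at 0% on 75 reads. At the alpha run chr18:37050614-37050774 the genotypes did not divide by the level of the run. EAF WT replicate 3 and EAF KO replicate 2 were both at 83.3%, on 75 and 72 reads, while SF KO replicates 1 and 3 were at 16.7% and 33.3%, on 147 and 165 reads. The EAF oocytes of both genotypes were thus above both SF KO oocytes there. At single CpGs EAF WT replicate 3 and EAF KO replicate 2 differed in both directions. They stood at 100% and 25% at 37050731, 100% and 75% at 37050697, and 0% and 100% at 37050740.

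In secondary follicle oocytes the alpha run chr18:37139984-37140112 was methylated in both genotypes. SF WT replicates 2 and 5 stood at 50% and 25%, and SF KO replicate 5 at 98.8% on 485 reads. Conversely, chr18:37101169-37101232 was at 0% in SF KO replicates 4 and 5 and at 60% in EAF WT replicate 3. A run read in SF KO replicate 1 alone, chr18:37154004-37154113, was at 100% on 83 reads.

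The longest alpha run, chr18:37249603-37250191 with 34 CpGs, was read in 8 oocytes and in all 4 groups. Both EAF KO oocytes were low, at 0% on 397 reads and 9.09% on 323 reads, and EAF WT replicate 4 was at 27.2% on 144 reads. SF WT replicates 1 and 2 stood at 0.405% and 6.91%, and SF KO replicates 2, 3 and 5 at 0.0546%, 7.64% and 0%. These oocytes were read at different CpGs of the run. The EAF WT value rests largely on the CpGs at 37250120, 37250143 and 37250190, at 73.9%, 75% and 100%, which among the other oocytes SF WT replicate 2 alone read, at 0%. At the 9 CpGs that EAF WT replicate 4 shared with EAF KO replicate 1 the means were 8.64% and 0%, with 8 at 0% in both and the difference at 37249751 alone. The alpha run chr18:37091984-37092254 was at 0% in SF WT replicates 1 and 6 and in EAF KO replicate 2, at 2.00% in SF WT replicate 4 and at 18.9% in SF WT replicate 5.

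The beta subcluster was mostly unmethylated, and SF KO replicate 1 was its exception. That oocyte had 60.1% over 39 beta CpGs. The other SF KO oocytes stood at 0%, 21.7%, 0% and 0%, SF WT replicates 2, 4 and 6 at 7.69%, 0% and 0%, EAF WT replicate 1 at 0% and EAF KO replicate 2 at 18.8%. The SF knockout minus wild-type difference of 13.8 points was 2.87 points without SF KO replicate 1, and it turned to -7.94 points with CpGs of at least 1 read. With the replicate number as a block it was -3.85 points, although the numbers gave no ground for pairing oocytes. For knockout oocytes the EAF minus SF difference was 2.46 points, and 13.4 points without SF KO replicate 1. Each EAF group had 1 oocyte with at least 10 beta CpGs, too few to give a spread.

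Of 17 beta runs, 12 never exceeded 20%. The beta run chr18:37735649-37735781 was at 96.5% in SF KO replicate 1, on 220 of 228 reads, at 37.5% in SF KO replicate 3, and at 0% in SF KO replicate 4 and SF WT replicate 1. A run read in SF KO replicate 1 alone, chr18:37524873-37524983, was at 88.7% on 94 reads. The beta run chr18:37482067-37482174 was at 20% in EAF WT replicate 3 and 52.7% in EAF KO replicate 2, on 34 and 50 reads. The run read most widely in beta, chr18:37665459-37665552, was at 0% in 5 oocytes of all 4 groups, EAF KO replicate 2 among them on 261 reads.

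**Figure D4:**
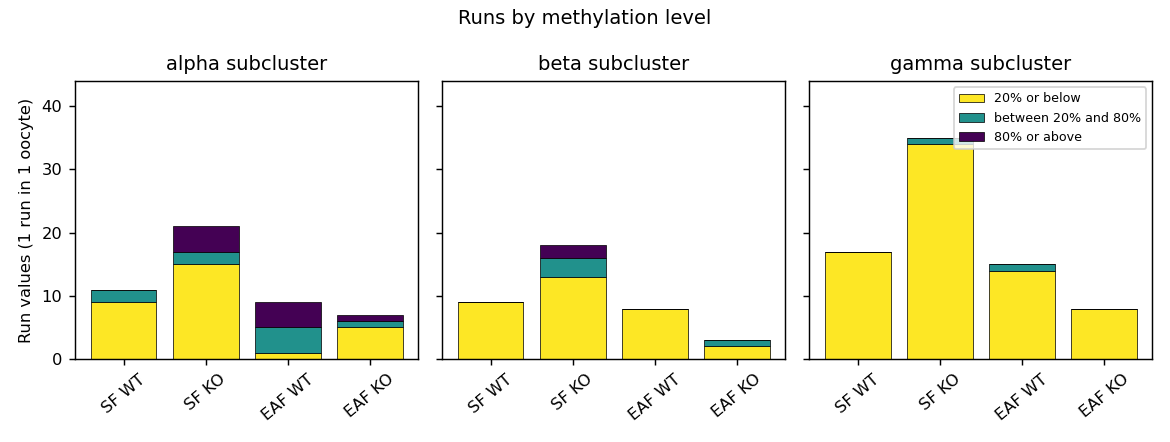
Number of run values (y axis, 1 value is 1 run in 1 oocyte) at 20% or below, between 20% and 80% and at 80% or above, by group (x axis) and subcluster. In alpha, EAF WT has 4 high, 4 intermediate and 1 low value and SF WT has 0 high, 2 intermediate and 9 low values. Bars differ in height because coverage differs, and groups were not read at the same runs.

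Counted over runs, alpha values at 80% or above made up 4 of 9 in EAF WT, 1 of 7 in EAF KO, 4 of 21 in SF KO and 0 of 11 in SF WT. The 4 EAF WT values came from 3 of the 4 oocytes, and the 4 SF KO values from replicates 1 and 5. The groups were not read at the same alpha runs, so these shares do not compare the same sites. The only alpha run read in both EAF WT and SF WT was chr18:37249603-37250191, where no oocyte was at 80% or above. The run chr18:37205410-37205718, read in 3 EAF WT oocytes, was not read in SF WT or EAF KO. Beta values at 80% or above were 2 of 18 in SF KO, both from replicate 1, and 0 in the other groups. In gamma, 73 of 75 values were at 20% or below.

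Within a run, methylated and unmethylated CpGs stood side by side in the same oocyte. Of the 165 run values, 36 held a CpG at 80% or above, and 29 of these also held a CpG at 20% or below. In 5 of the 36 all CpGs were at 80% or above. In the alpha run chr18:37139984-37140112, SF WT replicate 2 had 4 CpGs at 100% and 4 at 0%, SF WT replicate 5 had 2 at 100% and 6 at 0%, and SF KO replicate 5 had 96.7% to 100% at 8 CpGs. The 2 CpGs methylated in SF WT replicate 5, at 37140037 and 37140048, were also methylated in both other oocytes.

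A position could keep its state across oocytes. In the alpha run chr18:37205410-37205718 the CpG at 37205658 was at 0% in all 4 oocytes that read it, while the CpGs at 37205602, 37205606 and 37205624 were at 87.1% to 100% in all 4. The CpGs at 37205684, 37205691 and 37205695 were at 0% in EAF WT replicate 1 and at 100% in SF KO replicate 5. In SF WT replicate 5 no CpG of the run chr18:37091984-37092254 was above 38.4%, on 1870 reads summed over 10 CpGs.

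**Figure D5:**
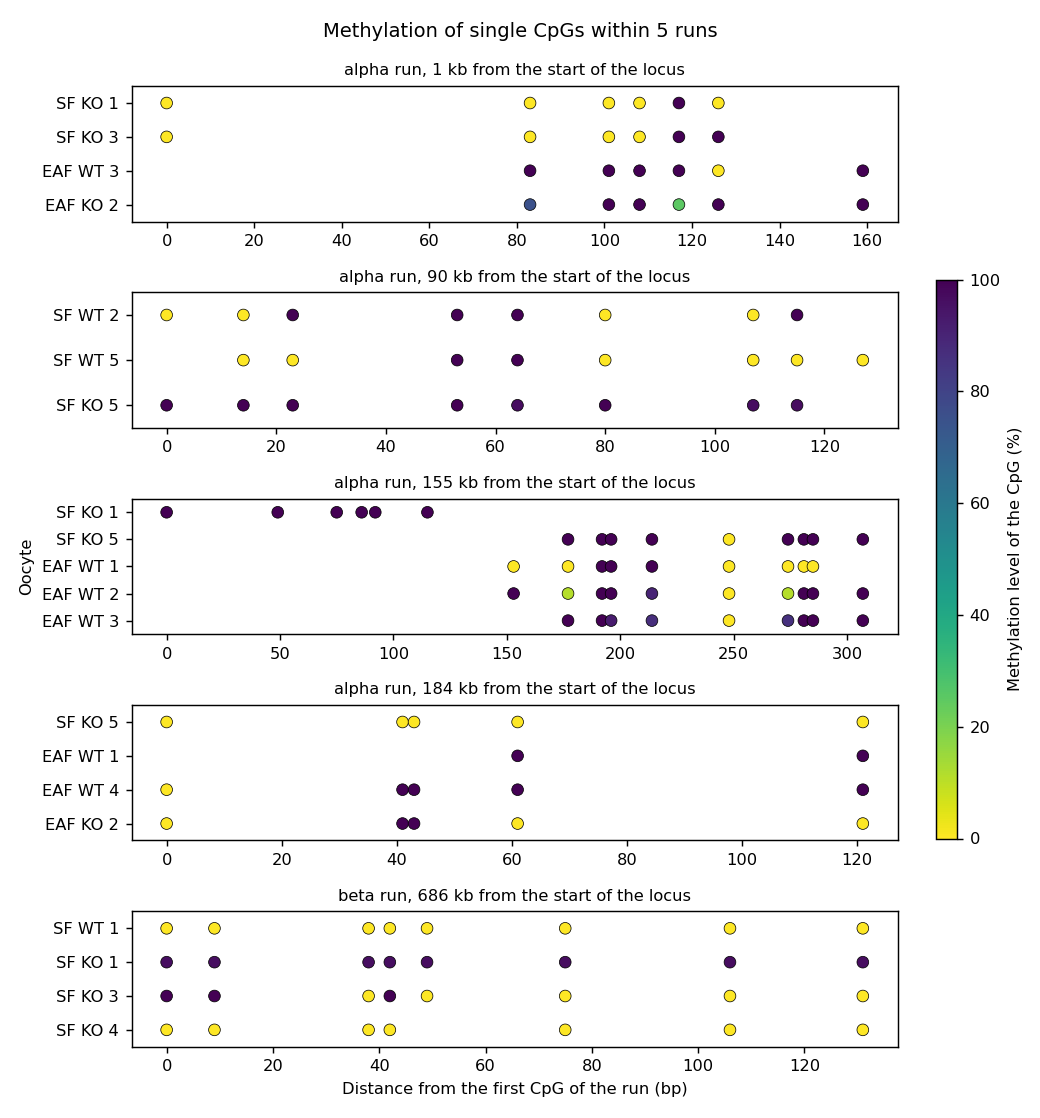
Methylation level of single CpGs (colour, %) in 4 alpha runs and 1 beta run, placed by the distance in bp from the first CpG of the run (x axis), with 1 row per oocyte that read it. Most CpGs are near 0% or 100%, and both occur within 1 oocyte; in the alpha run 155 kb from the start of the locus 1 CpG is at 0% in all 4 oocytes that read it, and the CpGs after it are at 0% in EAF WT replicate 1 and at 86.1% or above in SF KO replicate 5 and EAF WT replicate 3.

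Intermediate values were rarer in the locus than elsewhere. Of its 1235 CpG values, 4.13% lay strictly between 0% and 100%, against 19.04% of the values in the rest of the genome. Among values with 21 or more reads these shares were 8.56% and 24.3%. In CpG-poor sequence they were 4.13% and 19.6%, and with 10 to 19 CpGs within 100 bp they were 4.75% and 24.3%. Reads are not independent molecules here, and the gap was not tested.

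Oocytes of a group disagreed at some CpGs of the locus, as they did across the genome. A CpG read in at least 2 oocytes of a group was called discordant where it was at 20% or below in one and at 80% or above in another. In SF KO 15 of 119 locus CpGs (12.6%) were discordant, against 11.0% of all such CpGs, and without SF KO replicate 1 it was 6 of 71 (8.45%) against 7.09%. In SF WT it was 4 of 69 (5.80%) against 9.04%, in EAF WT 5 of 26 (19.2%) against 7.24%, and in EAF KO 1 of 11 (9.09%) against 3.26%. The EAF counts are small, neighbouring CpGs share fragments, and the shares were not tested against the background.

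Over the whole locus, the oocytes differ in how many CpGs of each subcluster they hold. EAF WT replicates 1 to 4 stood at 9.62%, 25.5%, 19.6% and 22.7%, EAF KO at 0% and 10.6%, SF KO at 28.2%, 0.393%, 9.68%, 1.09% and 16.3%, and SF WT replicates 1, 2, 4, 5 and 6 at 1.16%, 7.85%, 5.79%, 6.83% and 0%. All 4 EAF WT oocytes were above all 5 SF WT oocytes, and EAF KO and EAF WT overlapped. Over all CpGs of the series those SF WT oocytes, at 11.4% to 18.6%, also lay below EAF WT, at 19.8% to 23.5%. Group means were 19.4% ± 6.91 (SD, n = 4) in EAF WT, 5.29% ± 7.48 (SD, n = 2) in EAF KO, 11.1% ± 11.6 (SD, n = 5) in SF KO and 4.33% ± 3.52 (SD, n = 5) in SF WT.

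The EAF WT minus SF WT difference over the locus was 15.03 points, beside 6.81 points in the rest of the genome. At CpGs read in both groups it was 4.44 points in the locus and 4.39 points over all such CpGs. The EAF KO minus EAF WT difference was -14.1 points, beside -12.1 points in the rest of the genome. At CpGs read in both groups it was -0.375 points on the 51 of the locus and -9.37 points over all such CpGs. Leaving out EAF KO replicate 2 gave -19.4 points, and leaving out replicate 1 gave -8.78. In SF oocytes the knockout minus wild-type difference was 6.81 points over the locus and -2.70 points in the rest of the genome. Without SF KO replicate 1 these were 2.54 and -5.19 points. The EAF KO minus SF KO difference was -5.85 points over the locus and -2.59 points in the rest of the genome. Without SF KO replicate 1 these were -1.58 and -0.113 points.

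Single CpGs were then counted as changed where group means differed by at least 25 points. Required in at least 2 oocytes of both groups, 20 locus CpGs could be compared between SF genotypes, 17 of them in gamma. Of these, 1 was lower in the knockout, beside 10.3% of all CpGs, and 1 was higher, beside 5.52%. The lower CpG, alpha position 37249751, differed by -47.6 points, and the higher, gamma position 37815321, by 25 points. With the same requirement 0 locus CpGs could be compared between EAF genotypes, where 12.1% of all CpGs were lower in the knockout and 2.26% higher. The same held between wild-type stages, where 3.58% of all CpGs were lower in EAF and 8.90% higher. Between knockout stages 1 could be compared, position 37249751, which did not reach 25 points, beside 5.21% lower and 3.36% higher of all CpGs.

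With 1 oocyte per group enough, 51 locus CpGs could be compared between EAF genotypes. Of these, 6 were lower in the knockout (11.8%, background 16.0%) and 4 higher (7.84%, background 4.88%), with a median difference of 0. Between SF genotypes 135 could be compared, of which 1 was lower (0.741%, background 11.6%) and 21 were higher (15.6%, background 6.38%). Without SF KO replicate 1 it was 1 lower and 11 higher of 122, beside 12.6% and 4.13% of all CpGs. Most of the 21 higher CpGs lay in the runs chr18:37139984-37140112, chr18:37735649-37735781 and chr18:37912540-37912828. In SF KO the first of these runs was read by replicate 5 alone and the last by replicate 1 alone. Neighbouring CpGs share fragments, so none of these counts is of independent sites, and the shares were not tested. Between wild-type stages 0 of 61 were lower (background 4.91%) and 4 were higher in EAF (6.56%, background 10.3%). All 46 gamma CpGs among those 61 were at 0% in both. Between knockout stages 1 of 84 was lower in EAF (1.19%, background 8.04%) and 7 were higher (8.33%, background 6.09%). Without SF KO replicate 1 it was 1 lower, beside 5.03% of all CpGs, and 6 higher (7.14%), beside 7.11%.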

How the data were processed

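The members and lists were chosen with earlier results of these data known. Single-oocyte DNA was digested with MspI and bisulfite converted, per the labels' protocols, and the submitters' processing notes name BSMAP 2.89 and mm9. Per the file headers, the deposited tables give, for each CpG, the count of all reads and of methylated reads, summed over both strands. Their deposited ratio column holds the same information as a fraction, and no filter is stated in the labels.

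Sites on chromosome Y and unplaced sequence were dropped, as were CpGs under 5 reads. A CpG's level is its methylated share of reads in percent. A region's level in an oocyte is the unweighted mean of its CpGs, given where at least 10 were read. A run is at least 3 CpGs, each at most 200 bp from the next, and its level needs at least 2 CpGs in the oocyte. Density counts the CpGs, itself included, that some library read up to 100 bp away. Reads at several CpGs of a run are counted at each, and PCR copies are not separate molecules. Runs were to be named where at least 2 oocytes of each group covered them, all of them if 12 or fewer. Group means were compared without a test. The steps were tested on simulated data. No 2 libraries had the same counts at more than 3.81% of shared CpGs. Whether a replicate number pairs oocytes was checked by correlating the deviations of same-numbered oocytes from their group means over CpGs of the genome. The correlation lay between -0.0724 and 0.167, with 1 of 13 pairs above 0.1, so the numbers were not used as pairs in the main results. An alternative that took them as a block mainly drops oocytes without a same-numbered partner. Alternatives changed the read minimum, weighting, run gap, size and oocytes included. The software was pandas 2.3.3, numpy 2.4.6, scipy 1.17.1 and matplotlib 3.10.9, under Python 3.11.15.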

Additional observations from a re-analysis of the deposited data

Results flagged for a closer look

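The gamma level of SF WT replicate 1, 1.92%, stood apart from the other 3 SF WT oocytes with at least 10 gamma CpGs, which were all at 0%. It comes from a single CpG, position 37892313, with 9 of 9 reads methylated, while the other 8 CpGs read in that run were at 0%. Of 9 groups of oocytes examined in this way 1 stood out, and chance gives about 1 in 20 for independent values. That rate does not apply to this group. With the other 3 oocytes all at 0%, any level above 0% in the remaining oocyte would have stood out.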

How the results depend on the processing

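No test was made, so the values here are differences of group means in points, or counts. In the listed order the comparisons are EAF KO minus EAF WT, SF KO minus SF WT, EAF WT minus SF WT and EAF KO minus SF KO.

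With 1 oocyte left out, the whole-locus differences ran from -19.4 to -8.78, 2.54 to 9.49, 13.0 to 18.3 and -11.1 to -0.556. Those of alpha ran from -56.3 to -33.5, 3.31 to 14.2, 39.7 to 55.7 and -18.8 to 4.03. In beta the last 3 ran from 2.87 to 17.9, -3.85 to 0 and -1.63 to 13.4, and the first could not be given with an oocyte left out. In gamma they ran from -0.0615 to 1.43, -0.0901 to 1.15, -0.272 to 1.22 and 0.205 to 1.25. The count of CpGs changed by 25 points between SF genotypes, 2, ran from 0 to 2.

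At CpGs read in at least 1 oocyte of both groups, a setting chosen after seeing the data, the whole-locus differences were -0.375 for EAF genotypes, 4.44 for wild-type stages and 5.94 for knockout stages. Alpha gave -13.9, 22.6 and 16.1 in the same order, beta 20.5 for EAF genotypes, and gamma 4.13 and 3.38 for EAF and SF genotypes. Without SF KO replicate 1 the SF genotype value in gamma was 0.410. At CpGs read in at least 2 oocytes of both groups the SF genotype difference was -1.13 over the locus and -47.6 in alpha, where it rests on 1 CpG. Of the 20 locus CpGs, 18 had a difference of 0, and the same alpha CpG carries the negative value. With 1 oocyte of both groups enough, 135 CpGs gave 8.78 over the locus, beside -4.56 over all such CpGs. Without SF KO replicate 1 the locus value was 5.38, on 122 CpGs. Weighted by reads, the locus gave -26.1 for EAF genotypes and 23.4 for wild-type stages. Beta gave 7.25 for EAF genotypes and -9.98 for knockout stages, and gamma -1.08 for knockout stages.

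With at least 1 read per CpG, beta gave -7.19 for EAF genotypes, -7.94 for SF genotypes and -0.788 for knockout stages, and gamma -3.39 for EAF genotypes, 3.01 for wild-type stages and -0.920 for knockout stages. With at least 10 reads, EAF genotypes gave -6.46 over the locus, -73.4 in alpha and 3.02 in gamma. With that minimum SF genotypes gave 2.92 in gamma and 1 changed CpG, and wild-type stages 79.95 in alpha and 13.2 over runs. Changed CpGs numbered 10, 22, 4 and 8 with 1 oocyte of each group enough, against 0, 2, 0 and 0, and 0 between SF genotypes at a size of 50 points. With the replicate number as a block, the SF genotype difference in beta was -3.85 and the wild-type stage difference in gamma -0.753. The whole-locus differences under the block were -12.2, 6.09, 14.3 and -9.01. Several of these settings also change how many CpGs and oocytes enter. The cause of the changes was not tested.

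The alpha differences for EAF genotypes and wild-type stages kept their direction under the alternatives run, with sizes from -73.4 to -13.9 and from 22.6 to 79.95. In EAF WT the value of 22.6 rests on replicate 4 and a single run. The whole-locus differences for EAF genotypes and wild-type stages also kept their direction, from -26.1 to -0.375 and from 4.44 to 23.4. The differences over runs kept theirs as well. Several of the remaining differences changed sign under some alternative. Over the locus the SF genotype difference went from 6.81 to -1.13 on 20 CpGs, and the knockout stage difference from -5.85 to 5.94. In alpha these went from 9.52 to -47.6 and from -7.39 to 16.1, and several differences in beta and gamma also changed sign. Depth limits all of them: 0 runs were covered in 2 oocytes of each group, at gaps of 100, 200 and 500 bp alike.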

Other observations

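In 13 run values a single CpG was at 80% or above, and in 12 of them all other CpGs read in the run were at exactly 0%. The single CpG was the last one read in 5 of the 13, the first in 1 and inside in 7. First and last CpGs together, 6 of the 13, make up 27.3% of the CpGs in run values. Gamma held 4 of the 13. At position 37815321, the last CpG of chr18:37815187-37815322, SF KO replicate 4 had 14 of 14 reads methylated. At position 37907729, the last of chr18:37907109-37907730, SF KO replicate 1 had 10 of 10, with 24 other CpGs at 0%. At position 37966158, the last of chr18:37966064-37966159, EAF KO replicate 2 had 12 of 12. The other gamma case, position 37892313 in SF WT replicate 1, lay inside its run. Of the 6 alpha cases 4 lay inside, among them position 37249751 with 30 of 31 reads methylated in SF WT replicate 2 and position 37249738 with 30 of 30 in EAF KO replicate 2. The other 2 were last, position 37250038 in SF KO replicate 3 and position 37250190 in EAF WT replicate 4.

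Between alpha and beta, the run chr18:37396247-37396457 was read in 3 SF WT oocytes. It was at 33.3% in replicate 4, where 1 CpG of 3 carried all 21 methylated reads, and at 0% in replicates 2 and 7.

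With a minimum of 1 read, beta levels spread widely, from 0% to 86.7% in 6 SF WT oocytes and from 5.21% to 33.3% in 4 EAF WT oocytes. Gamma stayed low under the same minimum, with group means of 0.785% in SF WT, 1.33% in SF KO, 3.8% in EAF WT and 0.410% in EAF KO.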
